A study of Mus musculus with 27 samples.

Results

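The genes that surround Gne on mouse chromosome 4 were described in retinas that carried 1 working copy of Gne or both, with or without the complement gene C3. Members were genes on chromosome 4 whose lowest annotated position lay between 34 and 54 Mb (GRCm38) and whose mean count over the 27 libraries was 20 or more. Gne itself and genes with symbols of ribosomal proteins or respiratory chain subunits were left out. The rule took 127 of the 55487 genes counted, of which 117 were protein coding. The groups were 6 Gne+/- C3-/- mice, 7 Gne+/- mice with both copies of C3, 7 C3-/- mice with both copies of Gne and 7 wildtype mice. All were aged 9 months, and each library came from the retina of a separate mouse. The strain of the mice and the construction of the 2 mutant alleles were not given in the sources used here, and neither were the share of Gne that was deleted and the cells in which it was lost. The libraries were made with a kit that reads the 3′ ends of messenger RNAs. Of the measured values, the rule used the mean count over all libraries, which takes no account of genotype. Just outside that limit lay Fam205c, Tesk1 and Gm12381, with mean counts of 14.6, 18.8 and 19.1, and just inside it Tpm2, Gm12405 and Tomm5, with 22.8, 25.9 and 26.6.

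Gne encodes the enzyme that makes ManNAc from UDP-GlcNAc and phosphorylates it, the steps that start sialic acid synthesis. Sialic acids cap the glycans of cell surfaces, and in the retina they are known as ligands of inhibitory receptors on microglia and as binding partners of complement factor H. Genes that lie close to a targeted gene are inherited with it. Their levels can differ between mutant and control mice because of the edited locus, or because the linked stretch comes from another strain. The genes around Gne therefore bear on how far a difference between genotypes reaches beyond the targeted gene.

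Library totals lay between 13.5 and 34.2 M counts. All 8 rod photoreceptor markers were detected, and they summed to between 26600 and 71500 CPM in a library. CPM (counts-per-million) is a count scaled to library size. The libraries were sequenced in 2 runs, run 1 with 4 Gne+/- C3-/-, 5 Gne+/-, 4 C3-/- and 5 wildtype libraries and run 2 with 2, 2, 3 and 2. The C3 transcript fell by 6.99 on the log2 scale in the C3-/- groups (SE 0.459, edgeR adjusted p = 7.11e-10, 13 against 14 libraries). Gne+/- mice 1 and 4 stood apart with 1610 and 2760 CPM of lens genes, against 39.0 to 311 CPM in the other libraries, and Cryaa of that list was at 0 in all libraries. Y-linked genes were above 10 CPM in 4 of 4 C3-/- and 0 of 5 wildtype libraries of run 1, and in 0 of 3 C3-/- and 2 of 2 wildtype libraries of run 2. In the other libraries of run 1 they were above it in 2 of 4 Gne+/- C3-/- and 2 of 5 Gne+/- libraries, and in run 2 in 2 of 2 of each.

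The first question was how far the loss of 1 Gne copy showed at its own locus. Gne (ENSMUSG00000028479, chromosome 4, 44034075 to 44084177, minus strand) had a lowest, median and highest level of 32.0, 44.0 and 56.7 CPM in the 9 Gne+/- libraries of run 1, against 99.2, 122 and 162 CPM in the 9 Gne+/+ libraries. In run 2 the 4 Gne+/- libraries had 13.0, 13.6 and 16.4 CPM and the 5 Gne+/+ libraries 43.0, 45.8 and 55.5 CPM. The genotypes did not overlap within either run. Over both C3 genotypes, Gne stood at 33.4% of its Gne+/+ level in Gne+/- mice (95% interval 29.2% to 38.2%, log2 fold change -1.58, SE 0.0951, edgeR adjusted p = 2.2e-13, 13 against 14 libraries). In whole retina, fewer cells of a type and less RNA per cell cannot be told apart, which holds for each value given here.

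The fall measured in Gne lay outside the interval of the gene that adjoins its 3′ end. Clta, which encodes clathrin light chain A, a part of the coat of endocytic vesicles, lies on the opposite strand (44004452 to 44032846) and ends 1228 bases from Gne, so that the 2 genes meet at their 3′ ends. In run 1, Clta had 157, 202 and 242 CPM (lowest, median, highest) in Gne+/- and 176, 203 and 243 CPM in Gne+/+ libraries. In run 2 it had 147, 171 and 194 CPM in Gne+/- and 147, 195 and 200 CPM in Gne+/+ libraries. The genotypes overlapped in both runs, and the log2 fold change was -0.06 (SE 0.0688, 95% interval -0.20 to 0.08).

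**Figure D1:**
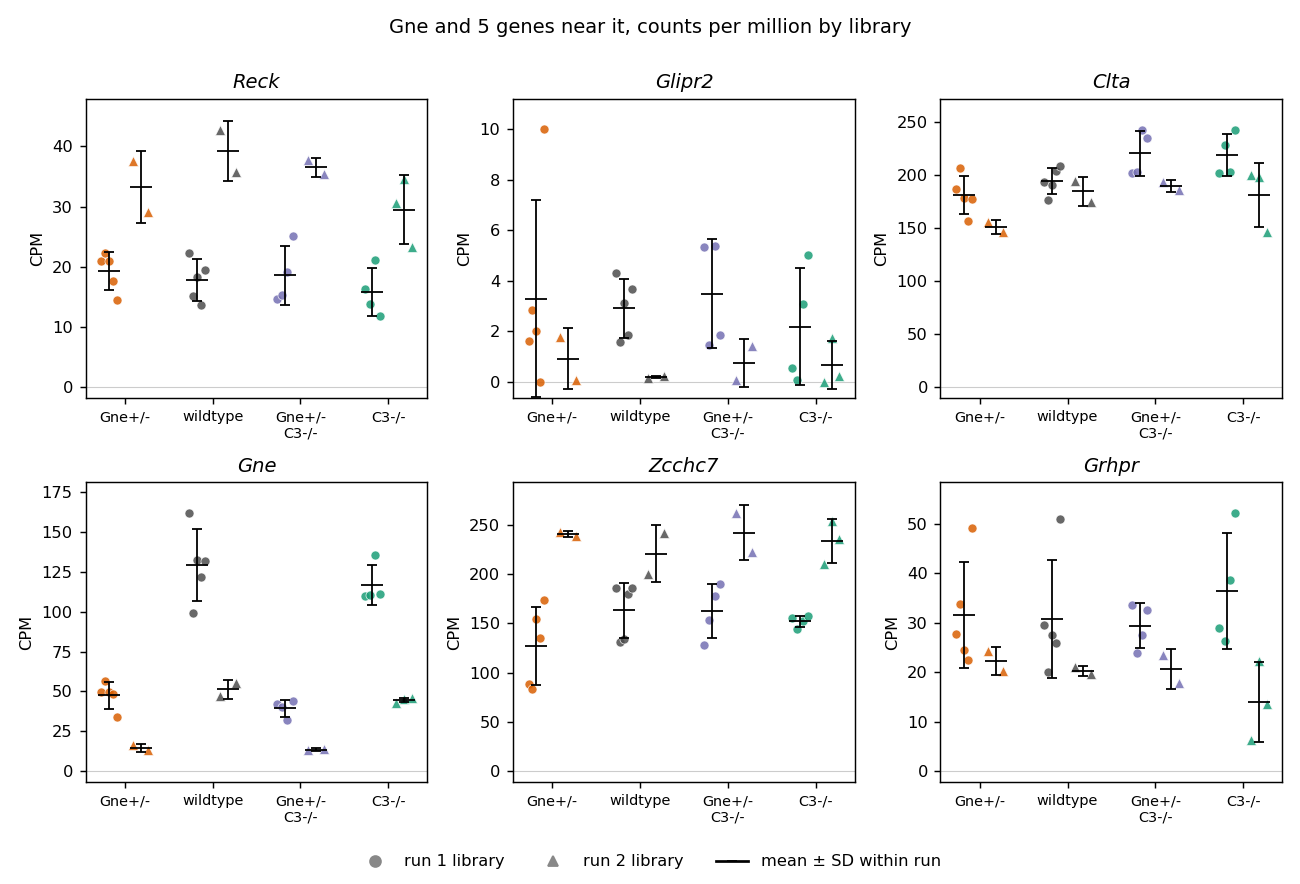
Level in CPM (y axis) of Gne and 5 measured genes near it, by genotype group (x axis); each point is 1 library, circles for run 1 and triangles for run 2, and the horizontal mark and bar give the mean ± SD within a run. Gne separates the Gne+/- groups from their controls in both runs, with Gne+/- medians of 44.0 and 13.6 CPM against 122 and 45.8 CPM, while the points of the other 5 genes overlap between genotypes in run 1.

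Farther out on the side of Clta lie Glipr2 and Reck, an inhibitor of matrix metalloproteinases. Reck had a log2 fold change of 0.14 (SE 0.126), with 14.5 to 25.2 CPM in Gne+/- and 11.9 to 22.3 CPM in Gne+/+ libraries of run 1. Glipr2 was measured poorly: its levels ran between 0 and 10 CPM in Gne+/- mice, and its log2 fold change of 0.51 had an SE of 0.624. On the other side of Gne, Zcchc7, a partner of the nuclear RNA exosome, had a log2 fold change of -0.07 (SE 0.101). Grhpr, which encodes glyoxylate and hydroxypyruvate reductase, had 0.04 (SE 0.175), and Polr1e, a subunit of RNA polymerase I, had 0.05 (SE 0.332). None of these passed the threshold.

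Across the whole stretch, 0 of 127 members passed an edgeR adjusted p of 0.05 in the Gne effect averaged over both C3 genotypes, beside a background of 0.00574% of the 17409 genes tested, which is Gne alone. At an unadjusted p below 0.05 stood 7 members (5.51%), 4 positive and 3 negative, beside 3.3% of all genes tested. The log2 fold changes of 68 members were positive and of 59 negative, with a median of 0.02 and a median size of 0.154, against 0.119 over the tested genes that likewise had a mean count of 20 or more. By DESeq2 and limma-voom, 0 members passed as well, beside 2 of 17368 and 1 of 17409 genes. The precision differed between members: the median SE was 0.184, and the 95% interval lay within a 2-fold change in either direction for 95 members (74.8%) and within a 1.5-fold change for 71 (55.9%). A change of the size measured in Gne lay below the 95% interval of 123 of the 127 members. The intervals of Dnajb5, Tmod1, Trim14 and Baat reached that far. Gm12394, with the highest log2 fold change, 1.76, was the least precise member, with an SE of 0.879. Changes smaller than these errors were not detectable with these libraries. Changes well above their SE, such as those of Tmod1 and Kif24 described below, did not pass either.

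**Figure D2:**
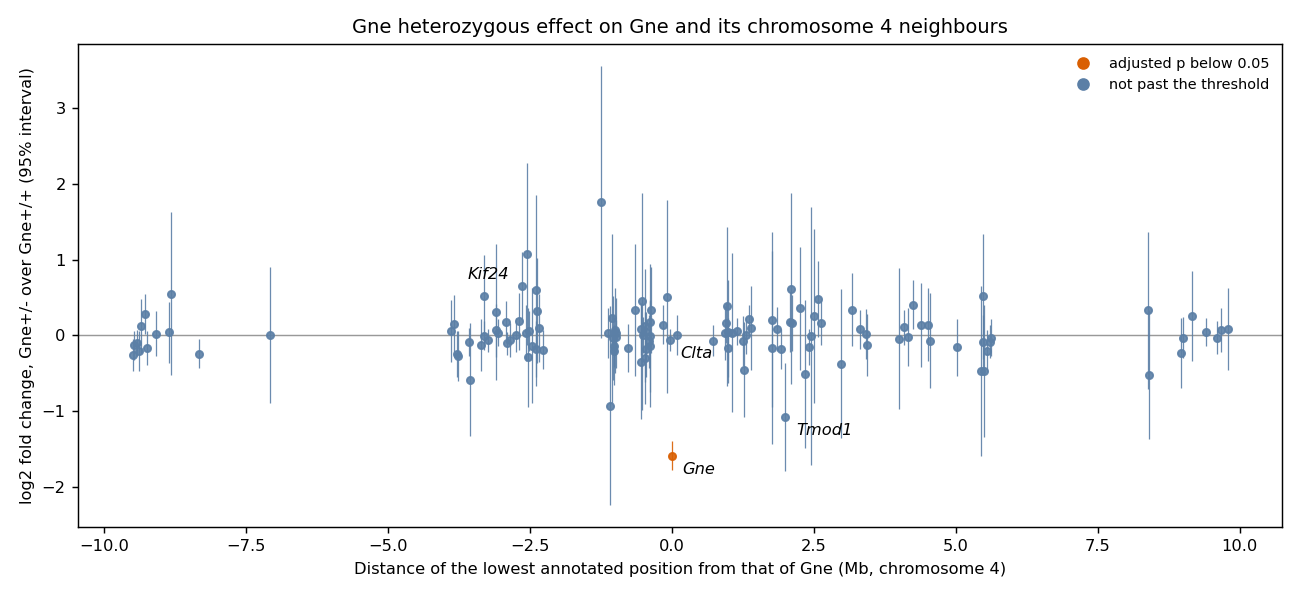
Log2 fold change of Gne+/- over Gne+/+, averaged over both C3 genotypes (y axis), against the distance from Gne in Mb (x axis); points are Gne and the 127 members, bars are 95% intervals and orange marks an adjusted p below 0.05. Gne at -1.58 is the one orange point, and the members lie on both sides of 0, with a median of 0.02.

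The medians lay close to 0 at each distance from Gne. Among the 26 members within 1 Mb of Gne, 0 had an unadjusted p below 0.05, and their log2 fold changes ran from -0.34 to 0.51 with a median of 0.035. The 48 members at 1 to 3 Mb had a median of 0.036 and 3 such p-values. The 32 members at 3 to 6 Mb had a median of -0.023 and 1 such value, and the 21 members beyond 6 Mb a median of 0.005 and 3. The 69 members on the centromere side and the 58 on the telomere side had medians of 0.009 and 0.028. These medians are descriptions and were not tested against each other.

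Grouped by role, 0 members of each list passed the threshold in the Gne effect. The lists are broad, and some of their genes fit the name only loosely. Examples are Aco1, Aldh1b1 and Grhpr under lipid transport and metabolism, and Enho and Smc2 under cytoskeleton, centrosome and cilium. In the list for glycan synthesis, 5 of 8 genes were members, with a median log2 fold change of -0.06. They included B4galt1, which adds the galactose to which sialic acids are joined, at -0.06 (SE 0.076). Slc35a1, which carries CMP-sialic acid into the Golgi, lies near the centromere end of the window (34663257 to 34687438). It had 54.6, 81.8 and 132 CPM in Gne+/- and 76.7, 96.3 and 122 CPM in Gne+/+ libraries of run 1 (lowest, median, highest), and 22.8, 28.8 and 41.5 CPM against 28.6, 35.1 and 51.7 CPM in run 2. Its log2 fold change of -0.20 (SE 0.127, 95% interval -0.46 to 0.05) did not pass, and the ranges overlapped in both runs.

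All 19 listed genes of membrane traffic and protein degradation were members, with 8 positive and 11 negative log2 fold changes and a median of -0.01. Topors, a ubiquitin and SUMO ligase in which human mutations cause retinitis pigmentosa, had -0.25 (SE 0.147). Of 10 listed neuronal genes 9 were members, with a median of -0.03. Unc13b, a synaptic vesicle priming factor that averaged 564 ± 170 CPM in wildtype (SD, n = 7), had -0.02 (SE 0.108). Gabbr2, a subunit of the GABA-B receptor, had 0.17 (SE 0.148). Chaperone and stress genes (8 of 9 listed) had a median of 0.10, and genes of RNA processing and transcription (14 of 17) 0.03. The list of lipid transport and metabolism (6 of 9) had a median of 0.04. The cytoskeleton, centrosome and cilium list (10 of 13) had a median of 0.00 and the widest range among these lists, from -1.08 to 0.65.

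That range was set by the members with the smallest p-values, none of which passed after adjustment (edgeR adjusted p = 1 for each). Tmod1, which caps the pointed ends of actin filaments, had 0.485, 1.96 and 3.17 CPM in Gne+/- and 1.47, 4.88 and 12.3 CPM in Gne+/+ libraries of run 1 (lowest, median, highest). In run 2 it had 2.86, 3.28 and 8.19 CPM in Gne+/- and 3.01, 4.83 and 7.87 CPM in Gne+/+ libraries. The ranges overlapped in both runs, and the log2 fold change was -1.08 (SE 0.35, unadjusted p = 0.00416, edgeR). With the runs analysed alone it was -1.50 in run 1 and -0.32 in run 2. Kif24, a kinesin that acts at the centriole, had 2.11, 20.9 and 31.8 CPM in Gne+/- and 7.02, 10.6 and 16.0 CPM in Gne+/+ libraries of run 1. Run 2 gave 25.4, 32.6 and 37.8 CPM in Gne+/- and 12.4, 26.4 and 28.3 CPM in Gne+/+ libraries. Most Gne+/- libraries were above the Gne+/+ libraries of their run, but Gne+/- mouse 4 was the lowest of all, and the log2 fold change was 0.65 (SE 0.22, unadjusted p = 0.0056, edgeR). Invs, the ciliary protein inversin, had 0.41 (SE 0.158).

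Lingo2, a leucine-rich repeat membrane protein of neurons, had 133, 281 and 292 CPM in Gne+/- and 282, 324 and 379 CPM in Gne+/+ libraries of run 1. In run 2 it had 275, 286 and 309 CPM in Gne+/- and 292, 299 and 304 CPM in Gne+/+ libraries. Its log2 fold change was -0.24 (SE 0.0931), with Gne+/- mice 1 and 2 the lowest at 133 and 177 CPM. It was -0.32 in run 1 alone and -0.04 in run 2 alone. The other members with an unadjusted p below 0.05 were Akirin2, a nuclear protein needed for import of proteasomes, at -0.26 (SE 0.103), Slc25a51, the mitochondrial NAD+ carrier, at 0.22 (SE 0.0889), and Smim8 at 0.28 (SE 0.129).

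The Gne effect could be taken apart by C3 genotype in groups that share no library. Of 127 members, 0 passed in Gne+/- C3-/- against C3-/- mice and 0 in Gne+/- against wildtype mice, beside 0.00574% of all genes tested in each, which is Gne alone. At an unadjusted p below 0.05 stood 3 members in Gne+/- C3-/- mice (2.36%, against 1.35% of all genes) and 10 in Gne+/- mice (7.87%, against 5.76%), and 0 in both. The sign of the 2 effects was the same for 73 of 127 members (57.5%), with a Pearson r of 0.204 and a Spearman rho of 0.151 across these members, which are not independent of each other. Over the 14635 tested genes with a mean count of 20 or more, the sign was the same for 50.3%, Pearson's r was 0.007 and Spearman's rho -0.012, and 16 genes had an unadjusted p below 0.05 in both. In Gne the effects were -1.62 (SE 0.138) without C3 and -1.54 (SE 0.13) with it. Their difference was -0.08 (SE 0.184, 95% interval -0.45 to 0.30).

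**Figure D3:**
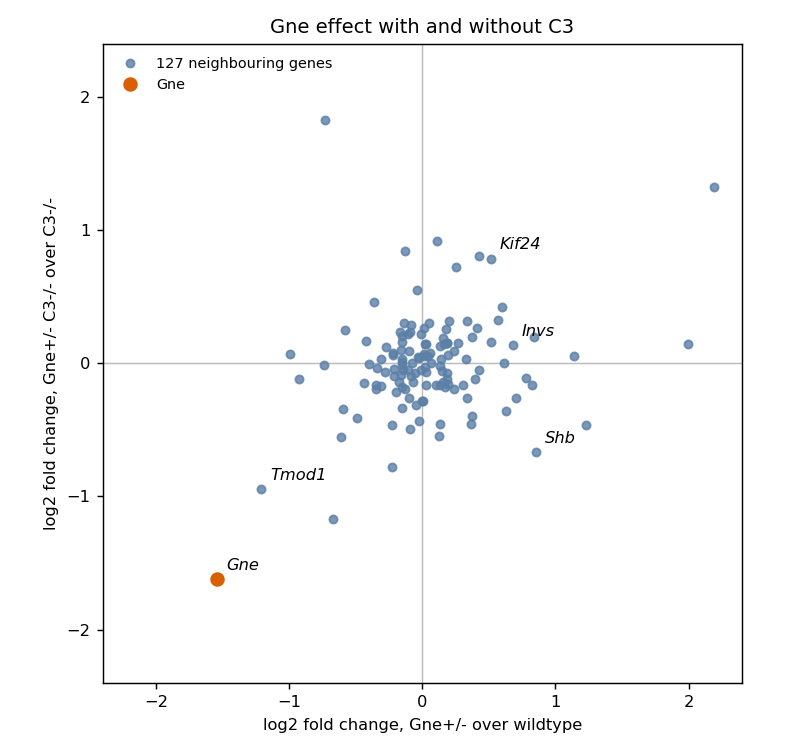
Log2 fold change of Gne+/- C3-/- over C3-/- mice (y axis) against that of Gne+/- over wildtype mice (x axis); blue points are the 127 members and the orange point is Gne. Gne stands at -1.62 and -1.54 in the lower left, and the members scatter around 0 in both comparisons, with Tmod1 at -0.94 and -1.21.

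The difference of the 2 effects passed for 0 members, beside 0.0% of all genes tested, and 3 members (2.36%) had an unadjusted p below 0.05, against 3.18% of all genes. The smallest p was that of Shb, an adaptor protein of tyrosine kinase signalling. In run 1 Shb had 3.64, 2.49, 1.81 and 2.05 CPM in Gne+/- C3-/- mice and 5.41, 3.98, 1.14 and 2.93 CPM in C3-/- mice. In the same run it had 9.13, 8.88, 6.66, 5.22 and 4.77 CPM in Gne+/- mice and 1.40, 3.57, 5.15, 3.33 and 2.61 CPM in wildtype mice. Levels in run 1 were highest in the Gne+/- mice that had both copies of C3, with overlap at the lower end. Run 2 had another order, with 2.90 and 3.00 CPM in Gne+/- C3-/- and 5.13 to 6.45 CPM in C3-/- mice, and 3.56 and 5.89 CPM in Gne+/- and 3.50 and 5.44 CPM in wildtype mice. Gne+/- against wildtype mice had a log2 fold change of 1.14 in run 1 alone and 0.10 in run 2 alone. The difference of the 2 Gne effects on Shb was -1.52 (SE 0.538, unadjusted p = 0.0081, adjusted p = 1, edgeR), with -1.56 in run 1 alone and -1.03 in run 2 alone.

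The second comparison, C3-/- with C3+/+ mice, involves an allele on another chromosome. Averaged over both Gne genotypes, 1 of 127 members passed the threshold, Abca1, which was lower in C3-/- mice. The background was 0.281% of all genes tested called lower and 0.569% called in either direction. Unadjusted p-values below 0.05 were found for 12 members (9.45%), 4 positive and 8 negative, against 7.67% of all genes. The members' median log2 fold change was -0.01 and its median size 0.134, against 0.144 over the tested genes that likewise had a mean count of 20 or more.

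Abca1 (ENSMUSG00000015243, chromosome 4, 53030787 to 53159895, minus strand, 9.00 Mb from Gne) encodes the transporter that moves cholesterol and phospholipid onto apolipoproteins, and is a known target of the liver X receptors. It was the one member that passed in the genotype comparisons as fitted here, with the low-count filter, and the 300 bases around its annotated start (RefSeq, GRCm38.p6, chr4:53159846-53160145, minus strand, 250 bases before to 50 after) are shown for that reason. Capitals mark the letters of 4 motifs searched on both strands, with no overlap between them: the pair TGACC and TAACC with 5 bases between them, chosen for its likeness to the receptor element known from this promoter, the GC box GGGCGG, the E-box CACGTG and the TATA box TATAAA.
Abca1: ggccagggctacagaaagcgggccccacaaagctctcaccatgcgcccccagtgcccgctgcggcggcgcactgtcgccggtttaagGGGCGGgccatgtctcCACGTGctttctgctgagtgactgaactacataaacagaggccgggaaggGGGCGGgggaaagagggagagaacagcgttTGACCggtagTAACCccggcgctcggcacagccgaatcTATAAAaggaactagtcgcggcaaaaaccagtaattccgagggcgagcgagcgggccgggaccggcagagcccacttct
The pair lies at -67 to -53 from the start, counted with no position 0, and the TATA box at -29 to -24. Of 32851 promoter windows of this length, 16 (0.0487%) hold the pair, 35.7% the GC box, 13.6% the TATA box and 7.15% the E-box. These are matches of letters, and binding was not measured. Since the pair was chosen after the element known from this promoter, its presence here was set beforehand. Its rarity elsewhere therefore says nothing about how Abca1 is regulated.

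In run 1, Abca1 had 39.0, 30.8, 21.6 and 22.9 CPM in Gne+/- C3-/- mice, against 33.3, 48.6, 37.2, 56.2 and 30.3 CPM in Gne+/- mice. In the same run it had 25.8, 37.3, 30.6 and 26.9 CPM in C3-/- mice, against 31.6, 72.5, 45.7, 57.2 and 53.5 CPM in wildtype mice. Run 2 gave 42.0 and 32.1 CPM in Gne+/- C3-/- mice, against 61.2 and 64.3 CPM in Gne+/- mice, and 29.1, 31.5 and 24.7 CPM in C3-/- mice, against 57.2 and 47.6 CPM in wildtype mice. Every C3-/- library of run 2 was below every C3+/+ library of that run, while the ranges of run 1 overlapped between 30.3 and 39.0 CPM. Abca1 fell to 60.5% of its C3+/+ level in C3-/- mice (log2 fold change -0.73, SE 0.133, 95% interval -0.996 to -0.45, edgeR adjusted p = 0.00184, 13 against 14 libraries). In Gne+/- mice against Gne+/+ mice its log2 fold change was -0.03 (SE 0.132).

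Taken by Gne genotype, Abca1 had a log2 fold change of -0.59 in Gne+/- C3-/- against Gne+/- mice (SE 0.192, adjusted p = 0.489, edgeR), where 0 members passed beside 0.19% of all genes tested. In C3-/- against wildtype mice it was -0.86 (SE 0.185, adjusted p = 0.0331, edgeR), the 1 member called lower beside 0.0919% of all genes. That call was lost when any 1 of 10 libraries was left out, namely C3-/- mice 1, 5, 6, 7, 8 and 9 and wildtype mice 2, 5, 6 and 7, with adjusted p from 0.0534 to 0.115 (edgeR). It was also lost in 4 of the 12 alternatives to the procedure, namely with the mouse number as a replicate block (-0.76, adjusted p = 0.0854, edgeR), in run 1 alone, in run 2 alone and with no run term. The 2 effects differed by 0.26 (SE 0.264, unadjusted p = 0.33). Within runs, the effect averaged over Gne genotypes was -0.67 in run 1 alone (adjusted p = 0.119, edgeR) and -0.82 in run 2 alone (adjusted p = 0.0107, edgeR). Pigment epithelium markers, measured in the same libraries, summed to 298 to 1540 CPM in Gne+/- C3-/-, 264 to 1860 CPM in Gne+/-, 212 to 1610 CPM in C3-/- and 281 to 1850 CPM in wildtype mice, with 5 of 5 detected. Their part in the result was not tested. With the Y-linked genes as a term in the fit, Abca1 was at -0.78 (adjusted p = 0.000633, edgeR), and without the 2 libraries rich in lens genes, an alternative chosen after seeing the data, at -0.73 (adjusted p = 0.00343, edgeR). Over the 12 alternatives, the adjusted p of the effect averaged over Gne genotypes ran from 5.23e-05 to 0.119.

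**Figure D4:**
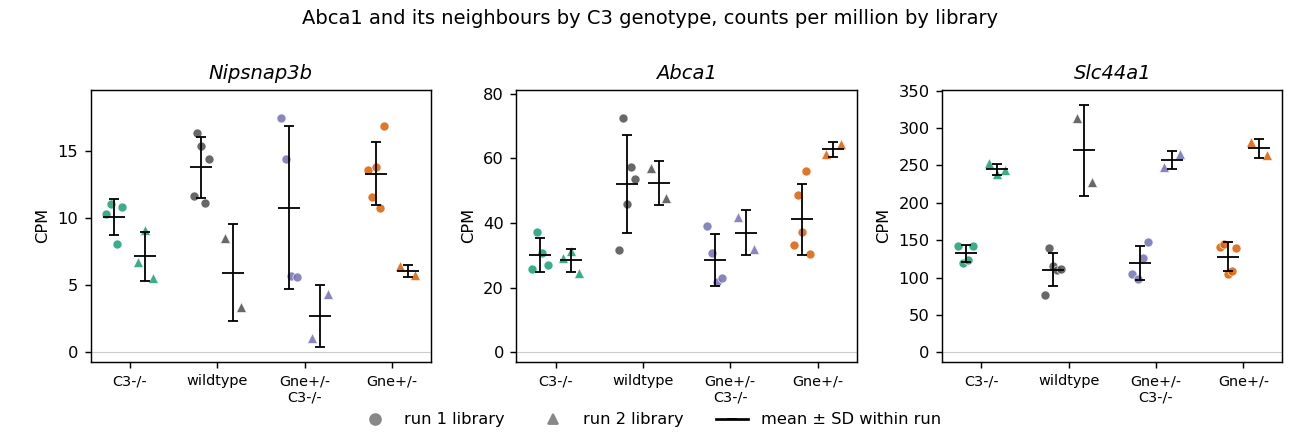
Level in CPM (y axis) of Abca1 and its neighbours Nipsnap3b and Slc44a1 by genotype group (x axis); each point is 1 library, circles for run 1 and triangles for run 2, with the mean ± SD within each run. The C3-/- groups of Abca1 lie between 21.6 and 42.0 CPM and the groups with both copies of C3 between 30.3 and 72.5 CPM.

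The genes beside Abca1 did not pass the threshold. Nipsnap3b had a log2 fold change of -0.33 (SE 0.222) in C3-/- against C3+/+ mice. On the other side, 4930412L05Rik had -0.58 (SE 0.295) and Slc44a1, a choline transporter, 0.01 (SE 0.0886). Of the 37 tested genes with a mean count of 20 or more within 5 Mb of Abca1, inside or beyond the 54 Mb limit, 0 passed, beside 0.569% of all genes tested. An unadjusted p below 0.05 was found for 6 of the 37, a larger share than the 7.67% of all genes. By distance from Gne, such p-values were found for 1 of 26 members within 1 Mb and 3 of 48 at 1 to 3 Mb. At 3 to 6 Mb they were found for 7 of 32, and beyond 6 Mb for 1 of 21. The medians of these bins were 0.04, -0.004, -0.131 and -0.085, and they were not tested against each other.

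**Figure D5:**
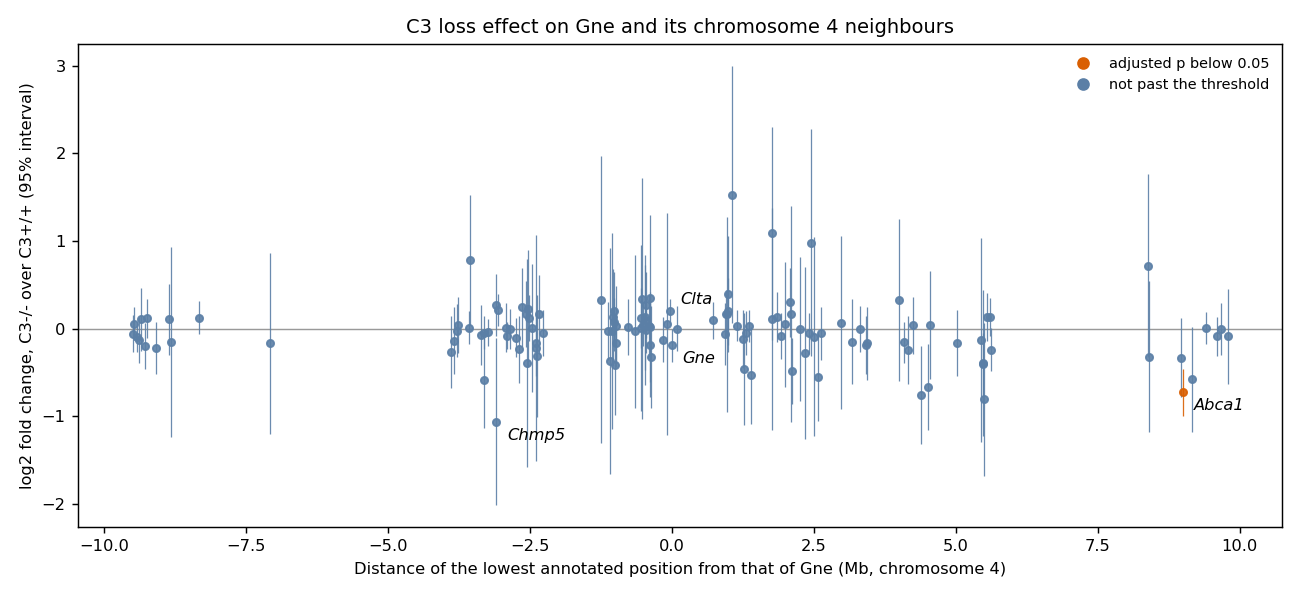
Log2 fold change of C3-/- over C3+/+, averaged over both Gne genotypes (y axis), against the distance from Gne in Mb (x axis); points are Gne and the 127 members, bars are 95% intervals and orange marks an adjusted p below 0.05. Abca1, at -0.73 and 9.00 Mb, is the one orange point, and the lower point of Chmp5 at -1.06 has a wider interval.

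Of the other members, Clta had the smallest p in the C3 effect, at a log2 fold change of 0.20 (SE 0.0688, unadjusted p = 0.00667, adjusted p = 0.353, edgeR). In run 1 it had 202, 216 and 243 CPM (lowest, median, highest) in C3-/- and 157, 189 and 209 CPM in C3+/+ libraries. In run 2 it had 147, 194 and 200 CPM in C3-/- and 147, 166 and 195 CPM in C3+/+ libraries, so that the ranges overlapped in both runs. Several members on the telomere side had negative values that did not pass: Xpa, a nucleotide excision repair factor, at -0.48 (SE 0.184), Tex10 at -0.76 (SE 0.277), Msantd3 at -0.66 (SE 0.242) and Mrpl50, of the mitochondrial ribosome, at -0.40 (SE 0.172). Chmp5, a subunit of the ESCRT-III membrane scission complex, had the lowest value, -1.06 (SE 0.458). Its levels in run 1 ran from 6.85 to 40.4 CPM in C3-/- and from 4.98 to 166 CPM in C3+/+ libraries. Gne itself had -0.19 (SE 0.0927, adjusted p = 0.645, edgeR).

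By role, the list of lipid transport and metabolism had 1 of its 6 members called lower, Abca1, and a median of -0.16 in the C3 effect. That list also holds Aco1, Aldh1b1 and Grhpr, so its median is not one of lipid genes alone. The other 6 lists had 0 members called, with medians from -0.06 for chaperone and stress genes to 0.05 for the cytoskeleton, centrosome and cilium list.

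No member separated the genotypes within both runs. For Gne+/- against Gne+/+, 0 of 127 members had all libraries of 1 genotype on 1 side in run 1 and again in run 2, beside 0.00574% of all genes, which is Gne. For C3-/- against C3+/+ the count was 0 of 127, beside 0.109% of all genes.

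The sequencing run moved the members far more than either genotype. Between run 2 and run 1, 87 of 127 members (68.5%) passed the edgeR threshold, 46 of them higher and 41 lower in run 2. That is near the share of 66.6% over tested genes with a mean count of 20 or more, and it was 59.5% over all genes tested. The members' median size of change on the log2 scale was 0.86, against 0.83 and 0.87 in these sets. A change of more than 1 was found in 55 members, and in 6206 of the 14635 genes with that mean count. Some members were nearly absent from run 1, among them Dnajb5 and Ncbp1, with medians of 0.159 and 0.191 CPM in run 1 and 9.69 and 11.4 CPM in run 2. Vcp and Tomm5, named here after their values were seen, were 2 more. Vcp, an ATPase that extracts ubiquitinated proteins, had a lowest, median and highest level of 26.4, 39.0 and 46.4 CPM in run 2 and of 0, 0.305 and 2.90 CPM in run 1. Tomm5, a small subunit of the mitochondrial import pore, had 1.55, 3.33 and 4.95 CPM in run 2 and 0, 0 and 0.643 CPM in run 1. Run 2 gave Vcp 26.4 to 42.1 CPM in Gne+/- and 38.8 to 46.4 CPM in Gne+/+ libraries, most Gne+/- libraries being the lower, whereas its Gne effect over both runs was positive, at 0.22, with an SE of 0.539. The Gne effect on Tomm5 was 0.04 over both runs and -0.17 in run 2 alone, and no direction is given here for either gene. The runs contain all 4 groups, and the fit carried the run as a term.

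Several known genes of the stretch could not be described. Of 404 genes that start in the window, with Gne left out, 188 were at 0 in all libraries and 88 had a mean count above 0 and below 20. Reads that fall on more than 1 annotated gene were not counted. All 13 protein-coding genes of the window whose whole span is shared with other genes were at 0, among them Galt, of galactose metabolism, and Dctn3, a dynactin subunit. Nans, the sialic acid synthase that acts downstream of Gne, shares 68.5% of its span with other genes and had a mean count of 0.778. The zeros of those 13 genes and the low count of Nans are not measures of expression. In all, 35 of the 191 protein-coding genes of the window were at 0, the 13 among them.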

How the data were processed

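Retinal 3′ mRNA libraries (QuantSeq, 100 ng RNA) were analysed from the raw counts per gene that the authors deposited. The submitters' processing notes name STAR 2.7.3a, Subread 2.0.0 and featureCounts. The file headers give featureCounts 2.0.3 and Ensembl release 101. Exon and whole-gene features were counted without strand, per the file headers, so intronic reads are included.

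Counts were tested in R 4.3.3 with the edgeR 4.0.16 quasi-likelihood test (robust; 4 groups and run as terms, TMM factors, filterByExpr with a minimum count of 10). This left 17409 genes, all 127 members among them, with 22 residual degrees of freedom and a biological coefficient of variation of 55.1%. Standard errors came from the F statistic, and 95% intervals from t quantiles. Benjamini-Hochberg adjustment covered all genes tested, with a threshold of 0.05. The procedure was tested on simulated counts. CPM (counts-per-million) values use TMM-scaled library sizes. Counts come from PCR reads without molecular identifiers, and no pair of libraries held identical counts. Total counts per library were 13.5 to 34.2 M, and errors include the spread between mice.

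The members, role lists and named genes were chosen with earlier results of these data known. Named genes were members that passed, those nearest to Gne (6 on each side), those with the smallest p in each comparison, and up to 4 per role list; the text names a selection of them. A few members are left out of the text by name and not reported here. Alternatives were DESeq2 1.42.0, limma-voom (limma 3.58.1), RLE factors, other filters on low counts (none, or over 1 CPM in 6 libraries), no run term, each run alone, a replicate block, a term for Y-linked genes, leaving out each library or both lens-rich libraries, a narrower window and a higher count limit. Promoter windows came from RefSeq, where 105 of 127 members had one.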

Additional observations from a re-analysis of the deposited data

Results flagged for a closer look

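Among the 20 members looked at for a library far from the rest of its group, in 80 combinations of gene and group, 4 values were flagged, where chance flags about 5% of groups. Glipr2 had 10 CPM in Gne+/- mouse 5, of run 1, against 0 to 2.86 CPM in the other Gne+/- mice. Tmod1 had 8.19 CPM in Gne+/- C3-/- mouse 8, of run 2, against 0.485 to 3.37 CPM in the others of its group. Fbxo10, an F-box protein gene, had 19.3 CPM in Gne+/- mouse 8, of run 2, against 4.83 to 10.7 CPM. Akirin2 had 112 CPM in wildtype mouse 7, of run 2, against 39.9 to 67.2 CPM. The last 3 libraries belong to run 2, which held 2 libraries of each of these groups, so they were set mostly against run 1. Medians of run 1 and run 2 were 2.28 and 4.70 CPM for Tmod1, 9.26 and 17.4 CPM for Fbxo10 and 40.0 and 70.7 CPM for Akirin2. Over all groups of run 2, Fbxo10 ran from 10.7 to 29.9 CPM, around the flagged value. The flagged values of Tmod1 and Akirin2 were the highest of run 2. The part of the run in these flags was not tested.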

How the results depend on the processing

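The 63 named members were recomputed under 12 alternatives to the procedure and with each of the 27 libraries left out in turn. Of 4990 values, 250 changed sign with neither value called. In the Gne comparisons and in the difference of the Gne effects, 0 members passed under each of these settings, with a narrower window of 5 Mb on each side and with a mean count of at least 100. The background differed between settings. In Gne+/- against wildtype mice it was 72 of 29460 genes with no low-count filter, 8 of 17368 by DESeq2 and 0 of 17409 without a run term. Averaged over both C3 genotypes, these counts were 34, 2 and 0. Gne itself passed throughout except without a run term, at -1.48 (adjusted p = 0.186, edgeR) over both C3 genotypes, -1.49 against wildtype and -1.47 in C3-/- mice (adjusted p = 1 for each); the cause was not tested. With libraries left out in turn these values ran from -1.61 to -1.55, from -1.60 to -1.48 and from -1.66 to -1.57.

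For C3-/- against C3+/+ averaged over Gne genotypes, 1 member passed, beside 99 of 17409 genes tested. With no low-count filter 2 passed (Abca1 and Chmp5), beside 447 of 29460 genes. In run 1 alone 0 passed, beside 85 of 16861 genes, and 0 within 5 Mb of Gne, which leaves Abca1 out by construction. Chmp5 had a log2 fold change of -1.06 with and without the filter, but 0.05 in run 2 alone. Without the filter its SE was 0.138 and its adjusted p 1.69e-11 (edgeR). For Gne+/- C3-/- against Gne+/- mice, Chmp5 was the 1 member called with no filter, beside 306 of 29460 genes. For C3-/- against wildtype mice, 2 members passed with no filter, beside 91 of 29460 genes. In that comparison 0 passed without a run term (13 of 17409 genes), in run 1 alone (30 of 16861) and in run 2 alone (28 of 18828). With the replicate block (23 of 17409) and within 5 Mb, 0 passed as well. Leaving out 1 library gave 0 to 1. Apart from construction, the causes were not tested. Abca1 kept its sign throughout in the C3 comparisons. With libraries left out in turn its adjusted p ran from 0.000658 to 0.00568 over both Gne genotypes and from 0.0123 to 0.115 against wildtype.

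The mouse numbers were treated as unpaired. The residuals of 31 same-numbered pairs of libraries from different groups correlated between -0.215 and 0.594 (median -0.04), 10 of them above 0.1. Those of 120 differently numbered pairs lay between -0.628 and 0.602 (median -0.043), 22 of them above 0.1. The share above 0.1 was thus larger among the same-numbered pairs. Pairs above 0.1 were all of run 1 in both sets, and the same-numbered pairs of run 2 were all negative. Both medians pool the 2 runs, so they do not show how the same-numbered pairs of run 1 compared with the others. Of 62 comparisons, 24 were best with their own number, and the share expected by chance was not worked out. Whether mice with the same number share variation was not tested further. With the number as a replicate block, Abca1 had -0.68 (adjusted p = 0.00349, edgeR) over both Gne genotypes and -0.76 (adjusted p = 0.0854, edgeR) against wildtype. Few counts limited the precision of Glipr2. Run 1 totals of 13.5 to 21.3 M were near those of run 2 (14.9 to 34.2 M), and why Vcp was nearly absent from run 1 was not tested.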
